A study of Mus musculus with 12 samples.

Results

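The genes described here are *Cd5l*, *Vsig4*, *Marco*, *Adgre1*, *C1qa* and *C1qc*, which are known markers of the resident macrophages of the liver, the Kupffer cells. They were taken by symbol from the authors' liver RNA-seq table, in which all 6 were found among 3799 genes. The table holds only genes that the authors selected, by a criterion not given in the sources used here. The genes compared below, and the shares of all genes set beside them, are thus not a sample of the whole transcriptome. Its title calls them DEG, a usual short form of differentially expressed genes. If they were chosen by differences between these same livers, tests and counts for the 6 genes partly repeat that choice. All 6 passed the filter on low values that left 3317 genes for testing. The table covered 12 livers of male C57BL/6J mice that were 8 weeks old, split into 4 groups of 3, which are called Saline, DOX, DOX + K35 and DOX + K27. All but the Saline mice received 10 mg/kg doxorubicin (DOX), a DNA-damaging chemotherapy drug, by intraperitoneal injection on day 0 and on day 7, with saline in its place for the Saline group. Starting on day 2, the compound K35 or its analog K27 was given into the stomach at 50 mg/kg every other day, and the DOX mice received vehicle in this way. Livers were collected on day 20, and whole-liver mRNA was sequenced, so hepatocytes and all other liver cells entered each library. In the sample labels the treatment of the Saline group is given as vehicle, and whether these mice were also dosed into the stomach was not stated. The comparisons asked how doxorubicin and the 2 compounds changed gene expression in the liver.

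Kupffer cells sit in the liver sinusoids and clear bacteria, aged blood cells and complement-coated particles from portal blood. *Cd5l* encodes a secreted scavenger receptor cysteine-rich protein, also known as AIM, and is a target of the liver X receptor. *Vsig4* encodes the complement receptor CRIg, which binds C3b, and *Marco* encodes a scavenger receptor that binds bacteria and particles. *Adgre1* encodes F4/80, an adhesion receptor used to stain mouse macrophages. *C1qa* and *C1qc* encode the A and C chains of C1q, the recognition molecule of the classical complement pathway, which in the liver is made mainly by macrophages. In bulk liver RNA, fewer Kupffer cells and less of these transcripts per cell cannot be told apart.

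On GRCm38 with the GENCODE M21 annotation, the genes lie on 5 chromosomes, and none overlaps another annotated gene. *Cd5l* (ENSMUSG00000015854) spans chr3:87357881-87371073 on the plus strand, and *Adgre1* (ENSMUSG00000004730) spans chr17:57358691-57483527 on the plus strand. *Marco* (ENSMUSG00000026390) spans chr1:120474538-120505024 and *Vsig4* (ENSMUSG00000044206) spans chrX:96247203-96293438, both on the minus strand. *C1qc* (ENSMUSG00000036896, chr4:136889804-136893065) and *C1qa* (ENSMUSG00000036887, chr4:136895917-136898803) are neighbors on the minus strand with 2851 bp between them. *C1qb*, the gene of the third C1q chain, lies 3616 bp from *C1qc* on its other side and was not analysed here.

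The macrophage transcription factor PU.1 and factors of the MAF family, which mark macrophage identity, bind known short motifs. The sequence just before the start site of the marker genes was therefore searched for them. The RefSeq promoter table for GRCm38.p6 had entries for 4 of the 6 genes. Those of *Cd5l*, *Vsig4* and *Marco* are printed 5′ to 3′ in the direction of the gene, as the 250 bases before the RefSeq start site, with motif matches in capitals. They cover chr3:87357631-87357880 (plus strand) for *Cd5l*, chrX:96293439-96293688 (minus strand) for *Vsig4* and chr1:120505025-120505274 (minus strand) for *Marco*.
Cd5l: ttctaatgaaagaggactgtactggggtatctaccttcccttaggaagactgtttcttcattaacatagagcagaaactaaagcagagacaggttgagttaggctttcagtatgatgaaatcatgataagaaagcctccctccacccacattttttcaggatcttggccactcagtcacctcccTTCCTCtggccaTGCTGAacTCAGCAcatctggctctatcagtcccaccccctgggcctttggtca
Vsig4: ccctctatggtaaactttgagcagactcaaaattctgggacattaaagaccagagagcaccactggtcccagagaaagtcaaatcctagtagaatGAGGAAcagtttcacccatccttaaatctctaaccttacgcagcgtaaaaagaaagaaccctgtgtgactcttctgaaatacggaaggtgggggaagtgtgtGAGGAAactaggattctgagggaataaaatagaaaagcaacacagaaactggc
Marco: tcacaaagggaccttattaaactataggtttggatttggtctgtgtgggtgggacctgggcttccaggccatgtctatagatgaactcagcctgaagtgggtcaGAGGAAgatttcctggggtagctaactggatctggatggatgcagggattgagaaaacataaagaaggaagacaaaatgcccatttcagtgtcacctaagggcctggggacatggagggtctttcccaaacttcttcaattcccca
The core PU.1 motif GAGGAA, or TTCCTC when it lies on the other strand, occurred in all 4 entries and in 23.3% of the 32851 promoter windows of the same length. In *Cd5l* it began 66 bases before the start site on the minus strand, in *Vsig4* 155 and 53 bases before it and in *Marco* 146 bases before it. In *C1qc* it began 193 bases before the RefSeq start site on the minus strand. The *C1qc* window (chr4:136892915-136893164) lies partly inside the GENCODE gene, so it is not printed, and its distances do not hold for the GENCODE start. The MAF half-site TGCTGA, or TCAGCA on the other strand, was searched for after the *Cd5l* sequence had been seen. It was found in *Cd5l* only among the 4 entries and in 16.1% of all windows. There it occurred on each strand, beginning 54 and 46 bases before the start site, and formed an inverted pair with 2 bases in between. That arrangement was found in 2 of the 32851 windows (0.00609%). The pair and its spacing were also searched for after the *Cd5l* sequence had been seen. *Cd5l* was thus certain to be among these windows, and the share does not measure how unusual its promoter is. The motifs did not overlap each other. These matches are descriptions of sequence and were not tested for binding.

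Levels are given in FPKM, the number of fragments per kilobase of transcript, scaled to library size. The table's header names no unit, and TPM would differ by 1 factor per library. It holds no read counts, so the depth behind each value and its counting error are unknown, and the precision is that of the 3 livers per group. Livers are named by group and replicate number, except for libraries B3 and B4 (DOX) and C4 (DOX + K35), whose codes could be matched to a group but not to a replicate number. The share of the summed FPKM taken by the 13 mitochondrially encoded genes differed between livers, with 48.2% to 61.9% for Saline, 62.2% to 83.3% for DOX, 37.9% to 48.7% for DOX + K35 and 50.01% to 68.0% for DOX + K27. The FPKM of every gene is relative to a total that includes these transcripts, so each change below is given beside the median change of all genes. The 2 livers that stood apart for the marker genes were Saline replicate 3 and library C4.

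The secreted protein gene *Cd5l* had 20.8, 20.3 and 40.6 FPKM in Saline replicates 1, 2 and 3. In DOX it had 10.3 FPKM in replicate 1, 8.29 in library B3 and 4.23 in library B4. It had 24.7, 25.2 and 7.77 FPKM in DOX + K35 replicates 1 and 2 and library C4, and 26.9, 15.2 and 11.9 FPKM in DOX + K27 replicates 1, 2 and 3. All DOX livers were below all Saline and all DOX + K27 livers, whereas library C4 lay inside the DOX range. Means ± SD over the 3 livers were 27.2 ± 11.6 FPKM for Saline, 7.60 ± 3.09 for DOX, 19.2 ± 9.93 for DOX + K35 and 17.98 ± 7.89 for DOX + K27.

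The complement receptor gene *Vsig4* had 10.4, 8.09 and 18.4 FPKM in Saline replicates 1, 2 and 3. In DOX it had 6.99 FPKM in replicate 1, 2.90 in library B3 and 1.48 in library B4. DOX replicate 1 was thus close to the lowest Saline liver, and the other DOX livers were far below it. *Vsig4* had 9.40, 11.3 and 6.35 FPKM in DOX + K35 replicates 1 and 2 and library C4. It had 9.71, 7.03 and 5.69 FPKM in DOX + K27 replicates 1, 2 and 3. DOX replicate 1 overlapped with both compound groups. Its means (± SD, n = 3) were 12.3 ± 5.44 FPKM for Saline, 3.79 ± 2.86 for DOX, 9.02 ± 2.50 for DOX + K35 and 7.48 ± 2.05 for DOX + K27.

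The scavenger receptor gene *Marco* was the most uneven of the 6. It had 3.76 and 2.37 FPKM in Saline replicates 1 and 2 and 25.4 FPKM in replicate 3. In DOX it had 2.09 FPKM in replicate 1, 1.14 in library B3 and 0.333 in library B4. DOX + K35 replicates 1 and 2 had 3.21 and 4.04 FPKM, and library C4 had 8.48. The DOX + K27 livers had 3.70, 2.15 and 2.499 FPKM in replicates 1, 2 and 3. All DOX livers were below all others, but the gap to the lowest DOX + K27 liver was small. Because of replicate 3, the Saline mean of 10.5 ± 12.9 FPKM had an SD above the mean, while the means were 1.19 ± 0.878 FPKM for DOX, 5.24 ± 2.83 for DOX + K35 and 2.78 ± 0.815 for DOX + K27 (± SD, n = 3).

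*Adgre1*, the F4/80 gene, was the lowest of the 6 with a mean of 1.16 FPKM over the 12 livers, just above the filter of 1 FPKM. It had 1.61, 1.21 and 2.58 FPKM in Saline replicates 1, 2 and 3, and 0.703, 0.328 and 0.436 FPKM in DOX replicate 1 and libraries B3 and B4. DOX + K35 replicates 1 and 2 had 1.75 and 1.96 FPKM and library C4 had 0.630, below DOX replicate 1. In DOX + K27, replicate 1 had 1.34 FPKM, and replicates 2 and 3 had 0.681 and 0.662 FPKM, also below DOX replicate 1. The Saline and DOX livers did not overlap for this gene, and each compound group overlapped with DOX. Group means (± SD, n = 3) were 1.80 ± 0.701 FPKM for Saline, 0.489 ± 0.193 for DOX, 1.45 ± 0.715 for DOX + K35 and 0.893 ± 0.383 for DOX + K27. The DOX and DOX + K27 means were under 1 FPKM, so *Adgre1* passed the filter only through the groups where it was high.

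The C1q chain genes had the highest mean levels of the 6, at 23.7 FPKM for *C1qa* and 18.3 for *C1qc*. *C1qa* had 23.1, 23.1 and 65.6 FPKM in Saline replicates 1, 2 and 3, and 19.6, 16.5 and 6.76 FPKM in DOX replicate 1 and libraries B3 and B4. It had 18.4, 22.5 and 16.5 FPKM in DOX + K35 replicates 1 and 2 and library C4, and 32.8, 21.3 and 18.6 FPKM in DOX + K27 replicates 1, 2 and 3. Its DOX + K35 livers lay close together, overlapped with DOX and were all below Saline. Its means (± SD, n = 3) were 37.3 ± 24.5 FPKM for Saline, 14.3 ± 6.69 for DOX, 19.1 ± 3.05 for DOX + K35 and 24.2 ± 7.55 for DOX + K27.

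*C1qc* had 21.3, 18.4 and 48.9 FPKM in Saline replicates 1, 2 and 3, and 13.3, 11.1 and 5.30 FPKM in DOX replicate 1 and libraries B3 and B4. DOX + K35 replicates 1 and 2 and library C4 had 15.6, 19.3 and 13.4 FPKM, and DOX + K27 replicates 1, 2 and 3 had 22.5, 15.3 and 14.6 FPKM. For *C1qc*, unlike *C1qa*, all DOX livers were below all livers of the other groups. Its means (± SD, n = 3) were 29.5 ± 16.8 FPKM for Saline, 9.91 ± 4.14 for DOX, 16.1 ± 2.99 for DOX + K35 and 17.5 ± 4.40 for DOX + K27.

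**Figure D1:**
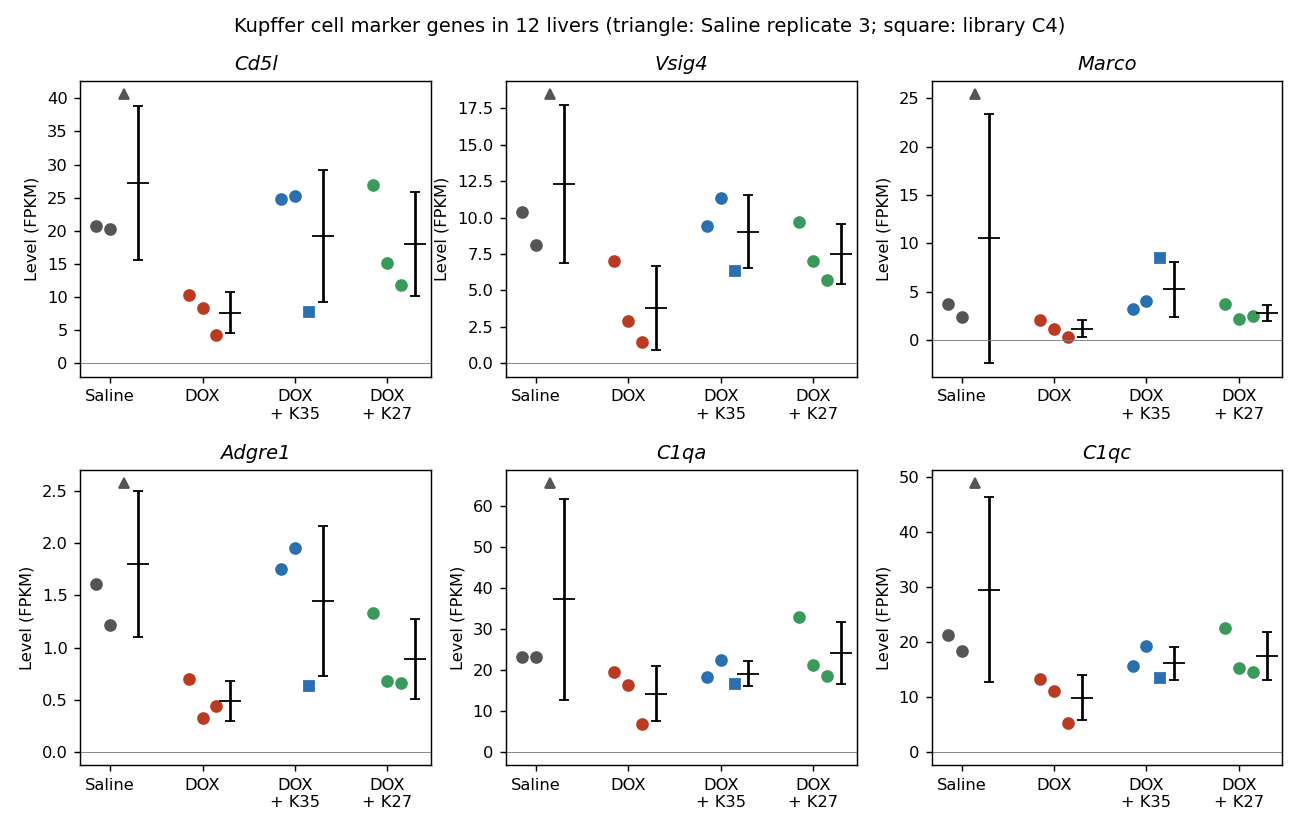
Level in FPKM of each of the 6 Kupffer cell marker genes (y axis, linear) in the 12 livers by group (x axis). Each point is 1 liver and each bar is the mean ± SD of 3 livers. Saline replicate 3 (triangle) was the highest liver for all 6 genes, and the DOX group had the lowest mean for each.

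For all 6 genes the mean was highest in Saline and lowest in DOX. *Cd5l*, *Vsig4*, *Marco* and *Adgre1* had a higher mean in DOX + K35 than in DOX + K27, whereas *C1qa* and *C1qc* had a higher mean in DOX + K27. Groups that are neighbors in these orders did not differ past the threshold of the tests given below for any of the 6 genes. Saline replicate 3 had the highest value of all 12 livers for each gene. Library B4 had the lowest for 5 genes, and library B3 had the lowest for *Adgre1*.

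The ratio of 2 genes within a liver does not depend on the scaling of the library. The ratio of *C1qa* to *C1qc* ranged only from 1.08 to 1.48 over the 12 livers, a span of 1.37 times, while the summed level of the 6 genes spanned 10.9 times. The ratio of *Vsig4* to *Cd5l* ranged from 0.350 to 0.817, with the highest value in library C4 and 0.679 in DOX replicate 1. The ratio of *Adgre1* to *Cd5l* ranged from 0.0395 in library B3 to 0.103 in library B4. *Marco* departed most from the others. Its ratio to *Cd5l* was 0.626 in Saline replicate 3 and 1.09 in library C4, but between 0.0788 and 0.211 in the other 10 livers. In library C4, *Marco* ranked second among the 12 livers while *Cd5l* ranked 11th, so the marker genes of this liver did not move as a block. The ratio of *C1qa* to *Cd5l* was 1.60 to 1.99 in DOX, 1.11 to 1.62 in Saline and 1.22 to 1.57 in DOX + K27, and 0.743, 0.891 and 2.12 in DOX + K35 replicates 1 and 2 and library C4.

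**Figure D2:**
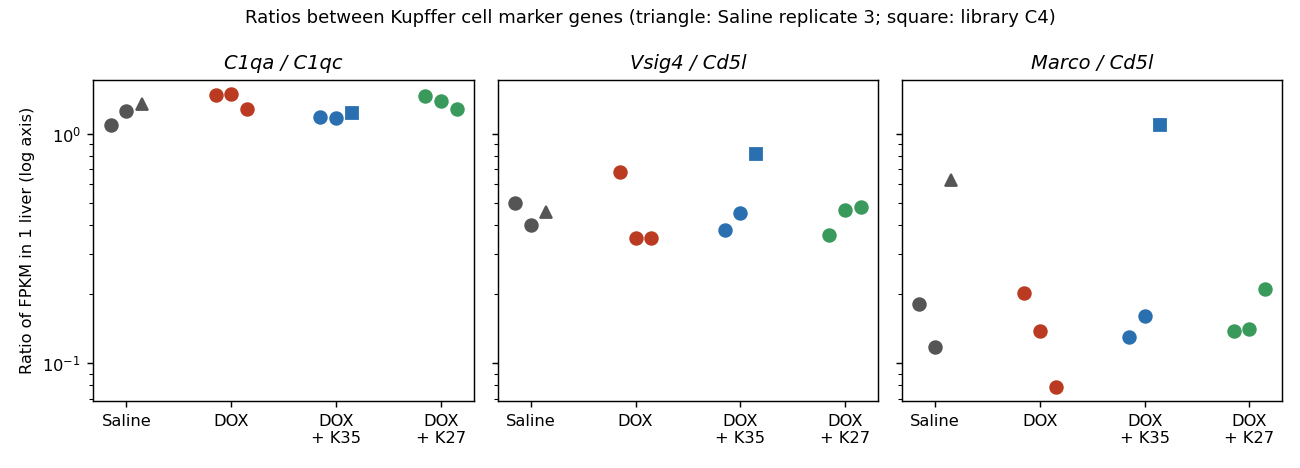
Ratio of FPKM between pairs of marker genes within a liver (y axis, log scale) in the 4 groups (x axis), with 1 point per liver. *C1qa*/*C1qc* stayed between 1.08 and 1.48, whereas *Marco*/*Cd5l* was 0.626 in Saline replicate 3 (triangle) and 1.09 in library C4 (square).

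Between DOX and Saline, all 6 genes were lower in DOX, as were 60.1% of all 3317 genes. The DOX mean was 0.279 times the Saline mean for *Cd5l*, 0.308 times for *Vsig4*, 0.113 times for *Marco*, 0.272 times for *Adgre1*, 0.383 times for *C1qa* and 0.335 times for *C1qc*. On the log2(FPKM + 1) scale, which understates the change of low genes such as *Adgre1*, the log2 fold changes were −1.71 for *Cd5l* (SE 0.46), −1.57 for *Vsig4* (0.40), −1.86 for *Marco* (0.58), −0.89 for *Adgre1* (0.25), −1.26 for *C1qa* (0.44) and −1.43 for *C1qc* (0.39). The median of the 6 was −1.50, and the median of all 3317 genes was −0.34. None of the 6 passed the threshold of an adjusted p under 0.05 (0 of 6, against 0.181% of all genes called), and their shared adjusted p was 0.0612 (limma, with the Benjamini-Hochberg step giving all 6 the same value). At an unadjusted p under 0.05 all 6 were lower, as were 40.1% of all genes. The DOX and Saline livers did not overlap for any of the 6, with DOX lower, which held for 23.0% of all genes.

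These counts rested on single livers. Without DOX replicate 1 all 6 genes passed, with adjusted p-values from 0.00947 to 0.0179 and 44.6% of all genes called (limma, Benjamini-Hochberg). Without Saline replicate 3, 4 genes passed (*Cd5l*, *Vsig4*, *Adgre1* and *C1qc*) with 35.8% of all genes called, and the log2 fold change of *Marco* was −0.96 in place of −1.86 (adjusted p = 0.0575, limma). Leaving out any other single liver gave 0 genes, with 0.0601% to 0.423% of all genes called. With libraries rescaled by the median ratio, 4 of the 6 passed (*Cd5l*, *Vsig4*, *Adgre1* and *C1qc*) with 30.4% of all genes called, the median of the 6 was −1.15 and the median of all genes was −0.03. With the 20 highest genes left out, the corresponding medians were −1.02 and 0.09, and 3 genes passed with 33.8% of all genes called. With the replicate number as a block, which leaves DOX replicate 1 as the only DOX liver, the log2 fold change was −0.66 for *Vsig4*, −0.99 for *Marco* and −0.61 for *C1qa*, with 0 of the 6 and 7.41% of all genes called.

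Between DOX + K35 and DOX, 4 of the 6 genes rose past the threshold, against 46.0% of all genes called higher. *Vsig4* rose by 1.20 on the log2 scale (SE 0.40, adjusted p = 0.0182), *Adgre1* by 0.68 (0.25, adjusted p = 0.0289), *Marco* by 1.50 (0.58, adjusted p = 0.0389) and *Cd5l* by 1.14 (0.46, adjusted p = 0.0460, limma, Benjamini-Hochberg). The C1q genes did not pass. The value for *C1qa* was 0.50 (SE 0.44, adjusted p = 0.329) and that for *C1qc* 0.72 (0.39, adjusted p = 0.126, limma, Benjamini-Hochberg). All 6 values were above 0, as were 56.0% of all genes. The median of the 6 was 0.93 and that of all genes was 0.46. Among the log2 fold changes of all genes, *Marco* stood at the 90.8th percentile, *Vsig4* at the 77.0th, *Cd5l* at the 73.3rd, *C1qc* at the 53.7th, *Adgre1* at the 52.8th and *C1qa* at the 50.6th. The scale understates the change of *Adgre1*, which passed the filter only through the groups where it was high, Saline and DOX + K35. With no filter its adjusted p was 0.0267 (limma, Benjamini-Hochberg). The DOX + K35 mean in FPKM was 4.41 times the DOX mean for *Marco*, 2.96 times for *Adgre1* and 2.53 times for *Cd5l*. It was 2.38 times for *Vsig4*, 1.62 times for *C1qc* and 1.34 times for *C1qa*. *Marco* and *C1qc* were higher in every DOX + K35 liver than in every DOX liver, which held for 44.3% of all genes.

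The 4 calls depended on the scaling. After median-ratio scaling 0 of the 6 passed, after quantile normalization only *Adgre1*, with the mitochondrially encoded genes left out only *Vsig4*, and with the 20 highest genes left out 0. Over all genes the calls were 1527 higher and 356 lower as deposited, but 1249 higher and 1385 lower after median-ratio scaling, 1261 and 1059 after quantile normalization, 1409 and 903 without the mitochondrially encoded genes and 916 and 1450 without the 20 highest genes. *C1qa* changed sign under 3 of these scalings. The calls also depended on single livers. Without library B3, library B4 or DOX + K35 replicate 2, 0 genes passed, with 48.6%, 49.5% and 45.4% of all genes called. Without DOX + K35 replicate 1 only *Marco* passed, with 45.8% of all genes called. Without library C4, *Cd5l* rose by 1.67, *Vsig4* by 1.41 and *Adgre1* by 0.95 and passed, with 63.4% of all genes called. *Marco* had 1.16 there and did not pass. *Cd5l* also missed the threshold without Saline replicate 1, Saline replicate 2 or DOX + K27 replicate 2. Only 9 livers carry a replicate number, and DOX replicate 1, the highest DOX liver for all 6 genes, is the only DOX liver among them. In these, the median log2 fold change of the 6 was 0.65 with the number as a block, against 0.21 for all genes. Without the block it was 0.54 against 0.21. Both fits set 1 DOX liver against 2 DOX + K35 livers and take the spread from the other groups, so they say little on the 4 calls. With Saline replicate 3 and library C4 both left out, the same 4 genes passed, with adjusted p-values from 0.0033 to 0.00836 (limma, Benjamini-Hochberg) and 65.7% of all genes called. That setting was added after these 2 livers were seen to stand apart for the marker genes. Its p-values are thus no independent support for the 4 calls.

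Between DOX + K27 and DOX, the log2 fold changes were 1.14 for *Cd5l*, 0.97 for *Vsig4*, 0.85 for *Marco*, 0.34 for *Adgre1*, 0.80 for *C1qa* and 0.82 for *C1qc*, with the same SEs as above. All 6 were above 0, as were 71.6% of all genes. Their median was 0.83 and that of all genes 0.36. None passed the threshold (0 of 6, against 0.0603% of all genes called), with adjusted p-values from 0.156 to 0.352 (limma, Benjamini-Hochberg). *Cd5l* and *Vsig4* had an unadjusted p under 0.05 (2 of 6, against 28.0% of all genes called higher). *Cd5l*, *Marco* and *C1qc* were higher in every DOX + K27 liver than in every DOX liver (3 of 6, against 15.9% of all genes). Without DOX replicate 1, *Vsig4* passed with a log2 fold change of 1.42 (adjusted p = 0.0238, limma, Benjamini-Hochberg), where 33.3% of all genes were called. Without library B4 the values were smaller, at 0.58 for *Vsig4*, 0.54 for *Marco*, 0.37 for *C1qa* and 0.46 for *C1qc*, and none passed. After median-ratio scaling the median of the 6 was 0.51 against 0.015 for all genes. With the replicate block, and so with DOX replicate 1 alone, it was 0.16 against 0.14.

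**Figure D3:**
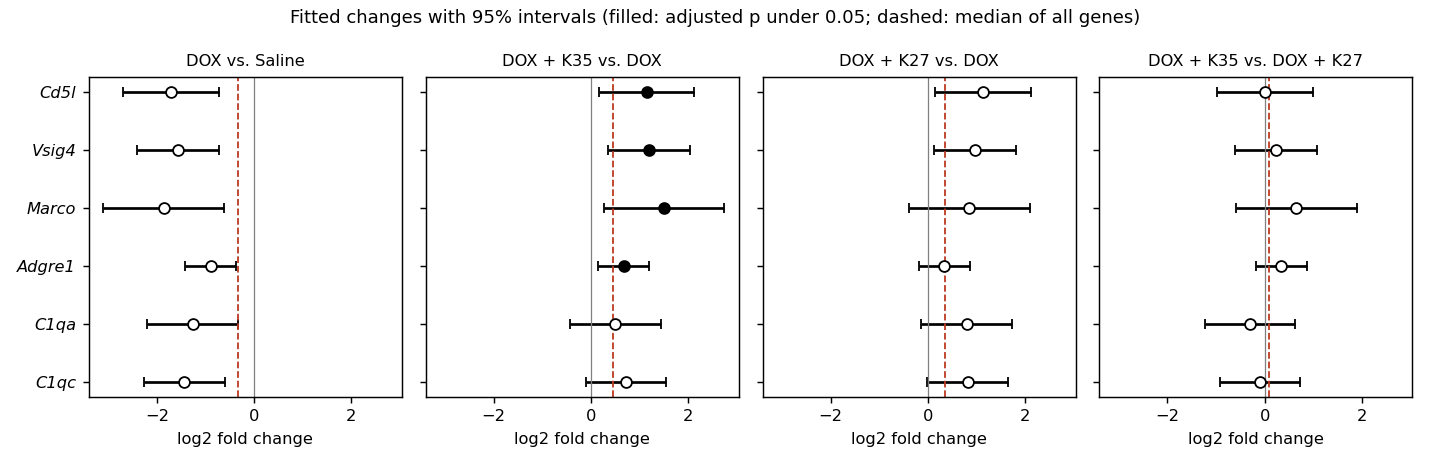
Fitted log2 fold change of each marker gene (x axis, log2(FPKM + 1) scale) with its 95% interval in 4 comparisons. Filled points had an adjusted p under 0.05, and the dashed line is the median of all 3317 genes. In DOX + K35 vs. DOX *Cd5l*, *Vsig4*, *Marco* and *Adgre1* are filled, and no point is filled in the other 3 panels.

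The analogs K35 and K27 were given at the same dose and schedule, so their livers were compared directly, in 1 pair of groups. None of the 6 genes differed past the threshold (0 of 6, against 2.11% of all genes called), and none had an unadjusted p under 0.05 (against 28.4% of all genes). The difference of DOX + K35 minus DOX + K27 was 0.0089 for *Cd5l* on the log2 scale, with a 95% interval from −0.97 to 0.99. It was 0.24 for *Vsig4* (−0.61 to 1.08), 0.65 for *Marco* (−0.59 to 1.90) and 0.34 for *Adgre1* (−0.18 to 0.87). For the C1q genes the sign was the other way, at −0.30 for *C1qa* (−1.23 to 0.63) and −0.10 for *C1qc* (−0.93 to 0.73). The adjusted p-values ran from 0.300 to 0.986 (limma, Benjamini-Hochberg). Each interval holds 0 and reaches 0.87 or more on 1 side, so the data do not show that the compounds act alike on these genes. With Saline replicate 3 and library C4 both left out, *Adgre1* was higher in DOX + K35 by 0.61 (adjusted p = 0.0498, limma), the other 5 did not pass, and 12.3% of all genes were called. This setting was added after these 2 livers were seen to stand apart for the marker genes. *Adgre1* also passed the filter only through the groups where it was high, so this call carries little weight. The replicate number is known for 9 livers, 2 of them DOX + K35. In these 9 livers 20.1% of all genes were called without a block. With the number as a block, 0 of the 6 passed but 43.6% of all genes were called. The difference was then 0.57 for *Cd5l*, 0.52 for *Vsig4* and 0.66 for *Adgre1*, with a median of 0.54 for the 6 and 0.081 for all genes.

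Against Saline, the marker genes of both compound groups had lower means, with no gene past the threshold. Log2 fold changes under 0 were found for 41.2% of all genes in DOX + K35 and 49.5% in DOX + K27. In DOX + K35 the log2 fold changes ran from −0.76 for *C1qa* to −0.21 for *Adgre1*, with a median of −0.47 against 0.13 for all genes (0 of 6 called, against 0.181% of all genes, adjusted p from 0.368 to 0.725, limma). In DOX + K27 they ran from −1.01 for *Marco* to −0.46 for *C1qa*, with a median of −0.59 against 0.0039 for all genes (0 of 6 called, against 0.121% of all genes, adjusted p from 0.820 to 0.943, limma). *C1qa* was lower in every DOX + K35 liver than in every Saline liver, as were 10.1% of all genes. These differences rested partly on Saline replicate 3. Without it, *Marco* was higher in DOX + K35 than in Saline by 0.55, and *C1qa* in DOX + K27 was higher by 0.028.

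The summed FPKM of the 6 genes was 80.9, 73.4 and 201.5 in Saline replicates 1, 2 and 3, and 53.0, 40.2 and 18.5 in DOX replicate 1 and libraries B3 and B4. It was 73.1, 84.3 and 53.1 in DOX + K35 replicates 1 and 2 and library C4, and 97.0, 61.7 and 53.9 in DOX + K27 replicates 1, 2 and 3. Among the DOX livers the sum was lowest where the mitochondrial share was highest, whereas Saline replicate 3 had the highest sum at a mitochondrial share of 61.9%. As a share of the FPKM of all genes that are not mitochondrially encoded, the 6 genes averaged 0.0883% ± 0.0551 for Saline, 0.0326% ± 0.0133 for DOX, 0.0505% ± 0.0108 for DOX + K35 and 0.0544% ± 0.0157 for DOX + K27 (± SD, n = 3). On this scale the highest DOX liver (0.0434%) was above the lowest DOX + K35 liver (0.0387%) and below all Saline and DOX + K27 livers, of which the lowest was at 0.0448%. These are descriptions with no test, and the part of the mitochondrial share in the results was not tested.

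**Figure D4:**
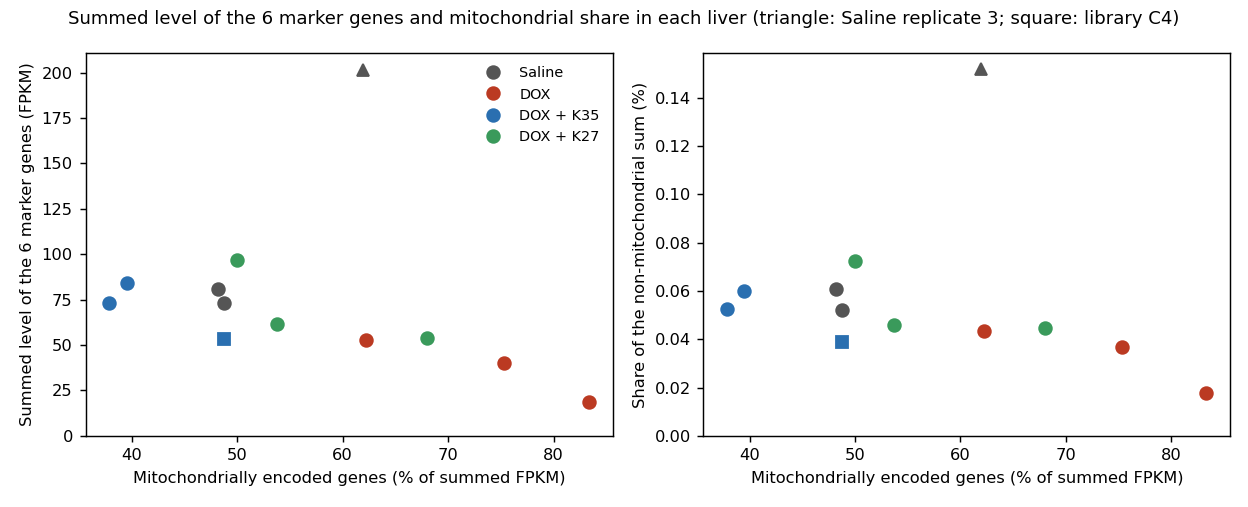
Summed FPKM of the 6 marker genes (left) and their share in percent of the FPKM of all genes that are not mitochondrially encoded (right), against the share of mitochondrially encoded genes in percent (x axis), with 1 point per liver. The DOX livers lie at 62.2% to 83.3% on the x axis, and Saline replicate 3 (triangle) stands above all others in both panels.

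Over the 12 livers, the 6 genes varied together. The Pearson correlations of log2(FPKM + 1) in the 15 pairs ran from 0.648 for *Cd5l* and *Marco* to 0.981 for *C1qa* and *C1qc*, with a median of 0.865. The livers share the scaling of their library, and after quantile normalization the median was 0.764. The lowest value was then 0.424, for *Adgre1* and *C1qa*, while *Cd5l* and *Marco* had 0.619. *C1qa* and *C1qc* were each other's most similar gene of all 3317, whereas *Marco* ranked 697th among the genes most similar to *Cd5l*. Outside the 6, the gene most similar to *Marco* was *Cd163*, the hemoglobin scavenger receptor of macrophages, with a correlation of 0.952. For *C1qc* it was *Lyz2*, the lysozyme gene of myeloid cells, with 0.961. For *C1qa* it was *Myd88*, an adaptor of Toll-like receptor signaling, with 0.929. The genes most similar to the others are not known as macrophage markers. They were *Tapbp*, which encodes tapasin, for *Cd5l* (0.971), *Serping1*, which encodes the C1 inhibitor, for *Vsig4* (0.973), and *Steap4*, which encodes a metalloreductase, for *Adgre1* (0.904). The names depend on the scaling. After quantile normalization the most similar genes were *Lgmn* for *Vsig4*, *Hmox1* for *Marco*, *Aif1* for *C1qc* and *Atp1b3* for *Adgre1*. *Tapbp* and *Myd88* stayed, and *Marco* ranked 162nd for *Cd5l*. These are correlations over 12 livers that fall into 4 groups and are given as descriptions.

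Whether the 6 genes were accompanied by other macrophage genes was examined with a list of 47 Kupffer cell and liver macrophage genes, of which 14 were in the table. *Clec4f*, *Timd4* and *Csf1r* were not analysed here, so the label rests on the 6 genes and these 14. These 14 are the ones that the authors' selection kept, so their shared direction may be fixed in part by that selection. All 14 were lower in DOX than in Saline, as were 60.1% of all genes, with a median log2 fold change of −1.12 against −0.34 for all genes, and none passed the threshold. In DOX + K35 vs. DOX 6 of the 14 rose (*Ctsc*, *Lgmn*, *Hmox1*, *Laptm5*, *Cd14* and *Cd163*, the last 4 named after their values were seen), a share below the 46.0% of all genes called higher. None fell, and the median was 0.58 against 0.46 for all genes. In DOX + K27 vs. DOX 12 of the 14 were above 0, as were 71.6% of all genes. None passed, and the median was 0.59 against 0.36 for all genes. Their summed level was 151 to 277 FPKM for Saline, 51.6 to 112 for DOX, 129 to 164 for DOX + K35 and 106 to 161 for DOX + K27. The 4 with the highest means were *Lyz2* at 32.2 FPKM, the protease gene *Ctsc* at 30.5, *Id3*, which encodes a regulator of Kupffer cell identity, at 20.8, and the protease gene *Lgmn* at 12.9.

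Library C4 again set some macrophage genes apart from others. In C4, *Cd163* had 3.18 FPKM, *Cd14* 4.67 and *Id3* 36.9, each above DOX + K35 replicates 1 and 2, as was *Marco*. *Folr2* had 1.64 FPKM, *Mpeg1* 3.65 and *Aif1* 1.37 in C4, each below them, as was *Cd5l*. Saline replicate 3 was high for both sets, with 4.21 FPKM of *Cd163* and 23.9 of *Mpeg1*. These genes were picked after their values were seen.

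**Figure D5:**
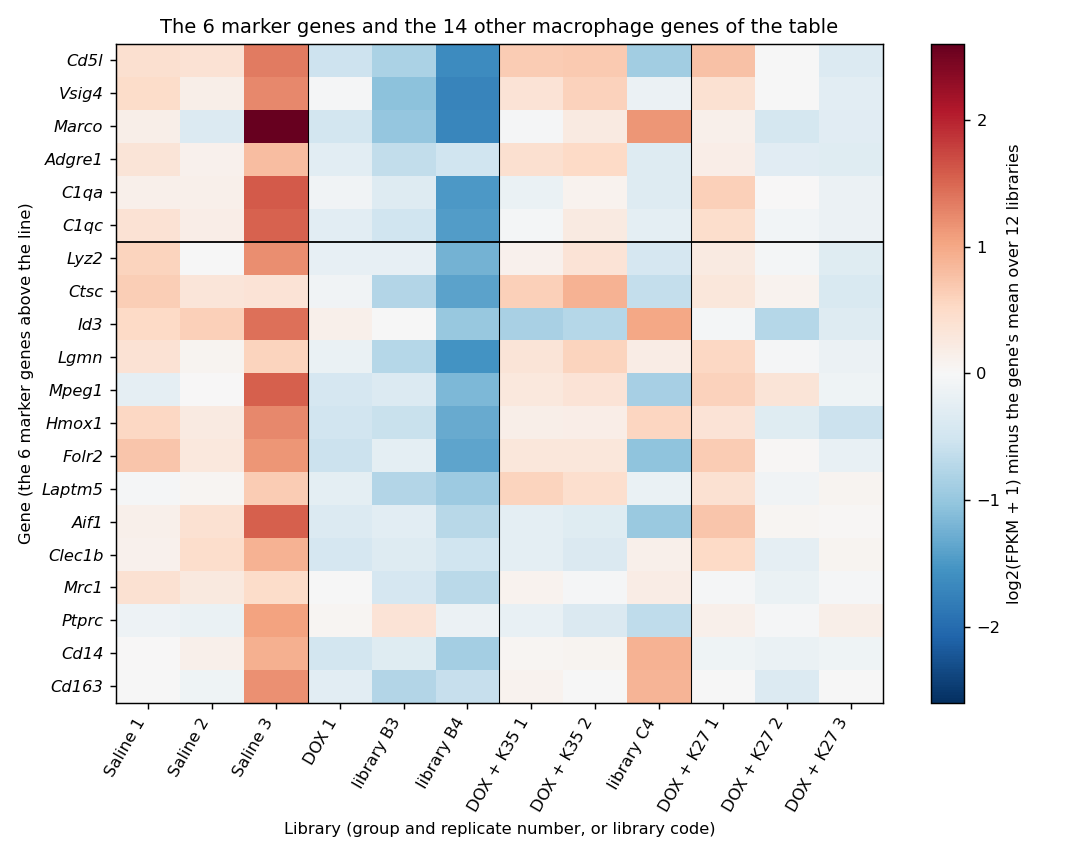
log2(FPKM + 1) of each gene minus its mean over the 12 livers (color scale), for the 6 marker genes (above the line) and the 14 other macrophage genes of the table (below it) by liver. Saline replicate 3 is red for all 6 marker genes and library B4 is blue, and in library C4 *Marco*, *Id3*, *Cd14* and *Cd163* are red while *Cd5l*, *Folr2* and *Aif1* are blue.

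The partners of these genes in complement and in the uptake of particles were measured in the same livers. Of 16 genes of the classical complement pathway, 6 were in the table, all 6 of them were lower in DOX than in Saline (median −1.32, 0 past the threshold), and 5 rose in DOX + K35 vs. DOX (median 1.30), where 46.0% of all genes rose. *C3*, whose product is the source of the C3b bound by the Vsig4 protein, had a mean of 1064 FPKM and rose by 2.18 in DOX + K35 vs. DOX (adjusted p = 0.00516, limma), and *Serping1* had 1.05 (adjusted p = 0.0641, limma). In the liver, C3 and the C1 inhibitor are known to be made mainly by hepatocytes. Of 20 scavenger and phagocytic receptor genes, 7 were in the table and 4 rose in DOX + K35 vs. DOX, namely *Scarb1*, *Cd36*, *Scarb2* and *Cd163*. *Lrp1* did not pass, with a log2 fold change of 0.17. Of 20 ligands and regulators of macrophages, 6 were in the table and 2 rose in DOX + K35 vs. DOX, namely *Rxra*, which encodes the partner of the liver X receptor, and *Smad4*. *Id1*, an inhibitor of transcription factors like *Id3*, had a change of −1.68 from Saline to DOX and of 0.37 from DOX to DOX + K35, neither past the threshold. Of 15 inflammatory products, 3 were in the table (*Il1b*, *Il1a* and *Cxcl13*), and none passed in either comparison.

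Other cell types were checked with marker lists in the same way. None of their genes passed the threshold in DOX vs. Saline or in DOX + K27 vs. DOX. Of the hepatocyte list 7 of 18 genes were in the table, and their median log2 fold change was −0.89 for DOX against Saline and 1.54 for DOX + K35 against DOX, where 5 rose. Of the sinusoidal endothelial list 5 of 17 were in the table, with medians of −0.24 and 0.79, and 3 rose. Of the stellate list 4 of 14 were in the table, with medians of 0.59 and −0.18, and 1 fell in DOX + K35 vs. DOX. Of the erythroid list 4 of 8 were in the table, all hemoglobin genes, with medians of 1.13 and −1.99, and all 4 fell in DOX + K35 vs. DOX, where 10.7% of all genes were called lower. Their summed level was 330 to 506 FPKM for Saline, 821 to 1135 for DOX, 62.2 to 596 for DOX + K35 and 452 to 1072 for DOX + K27, with the lowest value in library C4. Of the lymphocyte list 2 of 19 were in the table and 1 fell in DOX + K35 vs. DOX, and of the neutrophil list 1 of 14 was in the table and did not pass. Of the list of monocytes and recruited macrophages 2 of 17 were in the table, and the 1 tested, *Fn1*, which hepatocytes also express, rose in DOX + K35 vs. DOX. None of the 9 dendritic cell or the 6 cholangiocyte genes was in the table. All 13 mitochondrially encoded genes were higher in DOX than in Saline (median 1.10, 0 past the threshold), and all 13 fell in DOX + K35 vs. DOX (median −1.69). The part of these other cell types in the levels of the Kupffer cell marker genes was not tested.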

How the data were processed

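Whole-liver poly-T mRNA of 12 mice was sequenced (Illumina NovaSeq). The table that the authors deposited has 1 column of expression values per library, treated here as FPKM, for 3799 genes that they selected. The submitters' processing notes name HISAT2, DESeq2, edgeR and GRCm38 without versions or roles, and the unit, counting and test are not given in the sources used here. No common step underlies the low values, so reads could not be recovered and depth is unknown. Libraries A1 to A3, B1, C1, C2 and D1 to D3 were matched to labels by code. Codes B4 and C4 are absent from the labels, which name B2 and C3 instead, so B3, B4 and C4 entered their group without a replicate number.

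The 3317 genes whose mean reached 1 FPKM were transformed to log2(FPKM + 1). A one-way model over the 12 libraries was fitted in limma, using lmFit and eBayes with the trend option. Benjamini-Hochberg adjustment was done within each of 6 comparisons, with a threshold of 0.05. The same scripts were tested on simulated data. DOX vs. Saline, DOX + K35 vs. DOX and DOX + K27 vs. DOX share control or DOX libraries, so they are not independent of each other.

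The marker genes and gene lists were chosen with earlier results of these data known. Other genes named are the gene most similar to each marker gene by Pearson correlation and up to 4 genes with the highest mean of each list, and any others were picked with their values known. The lists cover other macrophage genes, monocytes, neutrophils, lymphocytes, dendritic cells, endothelial and stellate cells, cholangiocytes, hepatocytes, erythroid cells, complement, scavenger receptors, macrophage ligands and regulators, inflammatory products and mitochondrially encoded genes.

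Replicate numbers do not mark 1 mouse. As a check of pairing, the correlation between same-numbered Saline and DOX + K27 libraries of their deviations from the group mean was 0.258, 0.176 and 0.474. All were over 0.1, the limit set for treating numbers as pairs. Livers with different numbers correlated as strongly in places, at 0.380 for Saline replicate 1 with DOX + K27 replicate 2 and 0.302 for Saline replicate 2 with DOX + K27 replicate 1. The block could use only the 9 numbered libraries, with 1 from DOX and 2 from DOX + K35. The settings varied were the pseudocount (0.1), the filter (none), the scaling (median ratio, quantile, or without the mitochondrially encoded or the 20 highest genes), the samples (only the 2 groups compared, or each library left out), the threshold (0.01), the variance trend (none) and a replicate block. The 9 numbered libraries without a block, and leaving out Saline replicate 3 and library C4 together, were added after seeing the data. DESeq2 and TMM scaling need counts and were not run. Software was limma 3.58.1 in R 4.3.3, and numpy 2.4.6, pandas 2.3.3 and matplotlib 3.10.9 in Python 3.11.15.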

Additional observations from a re-analysis of the deposited data

How the results depend on the processing

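With 3 livers per group and no counts, the precision is that of the livers alone, and 1 liver can decide a call. The number of marker genes past the threshold is given with the share of all genes called in brackets. In DOX vs. Saline it was 0 as fitted (0.181%), 4 after median-ratio scaling (30.4%) and 3 after quantile normalization (19.6%). It was 3 with the 20 highest genes left out (33.8%) and 5 with Saline replicate 3 and library C4 both left out (46.5%). It ran from 0 to 6 when single libraries were left out (0.0601% to 44.6%). In DOX + K35 vs. DOX it was 4 as fitted (56.8%), 0 after median-ratio scaling (79.2%) and 1 after quantile normalization (69.9%). It was 1 without the mitochondrially encoded genes (69.8%) and 0 without the 20 highest genes (71%). At an adjusted p under 0.01 it was 0 (36.4%), and without the variance trend 1 (56.3%). When single libraries were left out it ran from 0 to 4 (45.4% to 63.4%). In DOX + K27 vs. DOX it was 0 to 1 when single libraries were left out (0% to 33.3%). In DOX + K35 vs. DOX + K27 it was 1 with both Saline replicate 3 and library C4 left out (12.3%). It was 0 in DOX + K35 vs. DOX with the replicate block and 0 in the 9 numbered libraries without a block, but both fits hold 1 DOX liver, replicate 1, so this loss cannot be ascribed to the pairing. No other number of marker genes past the threshold changed with the block, though their values moved. All genes called in DOX + K35 vs. DOX + K27 numbered 70 as fitted. There were 666 in the 9 numbered libraries without a block and 1443 with it, so the move cannot be ascribed to the block alone. A pseudocount of 0.1, no filter and a fit of only the 2 groups kept each number within 1.5 times, while the pseudocount moved the log2 fold change of *Adgre1* to −1.68 (DOX vs. Saline, −0.89 as fitted), 1.31 (DOX + K35 vs. DOX, 0.68), 0.74 (DOX + K27 vs. DOX, 0.34) and 0.57 (DOX + K35 vs. DOX + K27, 0.34), and that of *Marco* from 0.85 to 1.41 in DOX + K27 vs. DOX. The cause of these shifts was not tested.

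Signs that turned were those of differences that were not past the threshold. *C1qa* in DOX + K35 vs. DOX had −0.077 after median-ratio scaling, −0.14 after quantile normalization and −0.17 without the 20 highest genes. *Cd5l* in DOX + K35 vs. DOX + K27 had −0.13, −0.18 and −0.21 in the same settings, −0.086 without the mitochondrially encoded genes, and −0.26 to 0.53 when single libraries were left out. *C1qc* in that comparison had 0.17 with the replicate block, 0.016 in the 9 numbered libraries and also with both livers left out, and −0.23 to 0.086 when single libraries were left out. *Marco* in DOX + K27 vs. DOX had −0.023 with the replicate block. *Adgre1* in DOX + K35 vs. Saline had 0.11 with the block, 0.057 in the 9 numbered libraries, 0.25 with both livers left out, and −0.37 to 0.057 when single libraries were left out. With both livers left out, DOX + K35 vs. Saline had 0.27 for *Cd5l*, 0.15 for *Vsig4* and 0.20 for *Marco* (−0.94 to 0.55 when single libraries were left out), and *C1qa* in DOX + K27 vs. Saline had 0.028 (−0.71 to 0.028). The median correlation among the 6 genes was 0.764 after quantile normalization. As a share of all genes, the mitochondrially encoded ones included, the 6 genes averaged 0.00947% for DOX, 0.0296% for DOX + K35 and 0.0239% for DOX + K27. Of the 864 values of single genes under an alternative, 761 kept their direction and side of the threshold, 27 came to pass it, 49 no longer passed and 27 changed sign. Only the 4 genes called in DOX + K35 vs. DOX could lose a call, so all 49 losses fell on these. Leaving out a liver of neither compared group leaves a log2 fold change as it was. The 761 are thus no measure of how stable the calls were.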
